A study of Homo sapiens with 12 samples.

Results

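Iron uptake, storage and sensing were followed through 10 genes among the 63677 of the count table: TFRC, SLC11A2 and SLC39A14 for uptake, SLC40A1 for export, FTH1, FTL and NCOA4 for storage and its release, and IREB2, ACO1 and FBXL5 for sensing. The genes were taken as a named list, by symbol, and not by a cutoff on their values. The list was chosen with earlier results of these data known. Of these, 8 were tested, SLC40A1 had too few reads for a test, and NCOA4 could not be matched to the count table. Reads were counted in 12 RNA-seq libraries of polyadenylated RNA from the cell lines JEKO1, JVM2 and MAVER1 of mantle cell lymphoma (MCL). Every one of these 3 lines was cultured for 48 h without drug (Ctrl), with ironomycin (Irono), with ibrutinib (Ibru) or with both (Irono+Ibru). Ironomycin is a small molecule that acts on the iron of lysosomes. Ibrutinib inhibits BTK, a kinase of B-cell receptor signaling. Ironomycin was given at 50 nM to JEKO1 and at 250 nM to JVM2 and MAVER1. Ibrutinib was given at 0.5 µM to JEKO1, 1.5 µM to JVM2 and 6.25 µM to MAVER1. Dose and line cannot be told apart for ibrutinib in any pair of lines, nor for ironomycin where JEKO1 is set against the other two lines, which shared a dose. A line gave 1 library per treatment, so that the 3 lines stood as the replicates of a treatment (n = 3), and no second culture of a line was sequenced.

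Cells take up most of their iron as transferrin, which binds the transferrin receptor (TFRC) and is carried into endosomes, where the transporter DMT1 (SLC11A2) moves the iron into the cytosol. ZIP14 (SLC39A14) brings in iron that is not bound to transferrin, and ferroportin (SLC40A1) is the only known iron exporter. Surplus iron is stored in ferritin, a shell of heavy (FTH1) and light (FTL) chains, and NCOA4 delivers ferritin to the lysosome, where the iron is released. The iron regulatory proteins IRP1 (ACO1) and IRP2 (IREB2) bind hairpins called iron-responsive elements (IREs) when iron is scarce, which blocks translation of the ferritin chains and protects the TFRC transcript from decay. FBXL5 is the ubiquitin ligase subunit that has IRP2 degraded when iron is present, and IRP1 turns into a cytosolic aconitase when it holds an iron-sulfur cluster. Translation blocked at an IRE is not seen in transcript counts.

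The IREs are shown because they are the sequence feature that links the receptor, the ferritin chains and both sensors. They were searched in the untranslated regions of GENCODE 29 protein-coding transcripts on the transcript strand, as C, then any 5 bases, then CAGTGN, then 5 bases that all pair with the 5 before the loop (G with T allowed). The 29 bases around each match are written as DNA, 5′ to 3′, with the 6 loop bases in capitals. Each start position given is that of these 29 bases and not of the match within them. In the transcript TFRC-201 the search found 4 matches, all in the 3′ untranslated region, starting at bases 3388, 3792, 3857 and 3904:
TFRC at 3388: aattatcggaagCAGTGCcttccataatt
TFRC at 3792: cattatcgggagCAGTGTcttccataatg
TFRC at 3857: ctgtatcggagaCAGTGAtctccatatgt
TFRC at 3904: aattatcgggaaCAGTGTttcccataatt
The ferritin chains and ferroportin each held 1 match in the 5′ untranslated region, starting at base 59 of FTH1-201, base 35 of FTL-201 and base 199 of SLC40A1-201:
FTH1: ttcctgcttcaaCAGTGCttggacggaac
FTL: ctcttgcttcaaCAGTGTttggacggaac
SLC40A1: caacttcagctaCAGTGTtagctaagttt
SLC11A2 had no match with all 5 pairs, and 1 with 4 pairs in the 3′ untranslated region of SLC11A2-202, starting at base 1827:
SLC11A2: agccatcagagcCAGTGTgtttctatggt
Full matches were present in 159 of 19501 protein-coding genes (0.815%), and matches with at least 4 pairs in 1114 (5.713%). IREB2 and ACO1 also had 1 match each with 4 pairs, while FBXL5 and NCOA4 had none. For SLC39A14 no search result is given, because its chromosome was left out when the matches of single genes were listed. A match is a description of the letters and not a measured binding site.

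Library totals lay between 35448523 and 38630809 reads. The B-cell markers MS4A1, CD79A, CD79B and PAX5 had 3614 to 33388 reads in every library, and CCND1, the cyclin gene translocated in MCL, had 8025 to 182992. SOX11, another MCL marker, had 0 reads in the libraries of JVM2 and 2003 to 7648 in those of the other two lines. The 5 markers of T cells, monocytes and red cells had 0 to 84 reads. The epithelial marker EPCAM had 282 to 537 reads in MAVER1 and at most 126 in the other lines, and the fibroblast marker COL1A1 had 801 to 1247 in MAVER1, 334 to 453 in JVM2 and 38 to 79 in JEKO1. The mitochondrial genome gave 1.76 to 2.17% of the reads in the 6 libraries without ironomycin and 0.883 to 1.89% in the 6 with it. The part of that difference in the results below was not tested.

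The levels of all 8 tested genes differed between the 3 lines (edgeR quasi-likelihood test, adjusted p between 2.65e-09 for FTH1 and 2.78e-05 for TFRC). This was the common case, since 90.0% of the 18674 genes tested differed between lines. To compare genes with each other, counts scaled to the size of the library (CPM) were divided by the exon length in kilobases. FTL was highest in every line, at 467 ± 106 CPM per kb in JEKO1, 1880 ± 359 in JVM2 and 977 ± 81.6 in MAVER1 (mean ± SD over the 4 libraries of a line). FTH1 followed at 123 ± 26.5, 361 ± 90.5 and 75.1 ± 22.7 CPM per kb. TFRC lay at 30.1 ± 2.39, 87.0 ± 32.9 and 47.3 ± 16.0. The other 5 genes were all under 16 CPM per kb in every library, from IREB2 at 14.9 ± 0.605 in MAVER1 down to SLC11A2 at 2.01 ± 0.228 in JVM2. Thus the storage genes stood above the receptor and the receptor above the sensors and the other transporters in each line.

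**Figure D1:**
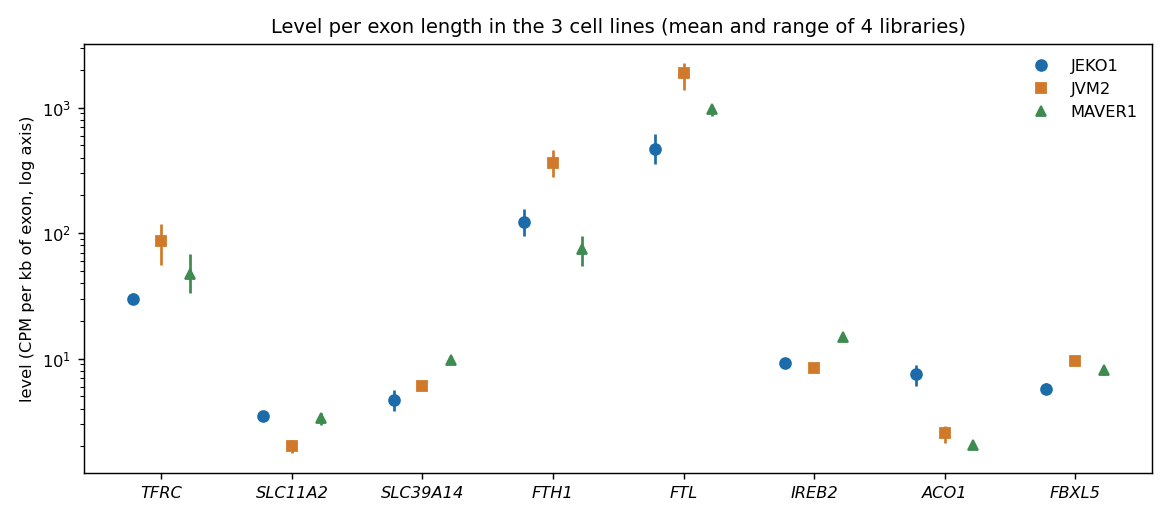
Level of the 8 tested genes per exon length (CPM per kb, log axis) in JEKO1 (circles), JVM2 (squares) and MAVER1 (triangles); symbols give the mean and bars the range of the 4 libraries of a line. FTL was the highest gene in each line, and ACO1 was highest in JEKO1 at 7.54 CPM per kb against 2.54 in JVM2 and 2.06 in MAVER1.

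The lines differed in which genes were high. Between single pairs of lines, edgeR called 78.3% of all tested genes for JVM2 and JEKO1, 66.4% for MAVER1 and JEKO1, and 71.2% for MAVER1 and JVM2, and the differences given here passed this test unless stated. JVM2 had the most FTL, FTH1 and TFRC, with levels 4.03, 2.91 and 2.72 times those of JEKO1 (log2 differences 2.01 ± 0.10, 1.54 ± 0.09 and 1.44 ± 0.17, SE). MAVER1 had the least FTH1, 0.206 times the level in JVM2 and 0.599 times that in JEKO1, although its FTL level was 2.13 times that of JEKO1. The ratio of FTH1 to FTL per exon length was accordingly 0.252 to 0.284 in JEKO1, 0.146 to 0.241 in JVM2 and 0.0573 to 0.0931 in MAVER1, with no overlap between the lines.

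The sensors were spread in another order. ACO1 was 0.337 times as high in JVM2 as in JEKO1 and 0.273 times in MAVER1 (log2 differences -1.57 ± 0.14 and -1.87 ± 0.14, SE). JVM2 and MAVER1 did not pass the test against each other for ACO1 (-0.30 ± 0.14, edgeR adjusted p = 0.0725). IREB2 was highest in MAVER1, 1.61 times the level of JEKO1 and 1.78 times that of JVM2. As a result, the per-length ratio of IREB2 to ACO1 was 1.11 to 1.37 in JEKO1, 2.72 to 4.06 in JVM2 and 6.76 to 7.88 in MAVER1. FBXL5 was lowest in JEKO1, and JVM2 and MAVER1 had 1.66 and 1.40 times its level.

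Of the transporters, SLC39A14 was highest in MAVER1, at 2.10 times the level of JEKO1 and 1.59 times that of JVM2. SLC11A2 was lowest in JVM2, at 0.572 times the level of JEKO1, while JEKO1 and MAVER1 did not pass the test against each other (-0.06 ± 0.07, edgeR adjusted p = 0.456). SLC40A1 was barely detected. It had 0 reads in the 4 libraries of JEKO1, 3, 1, 1 and 2 reads in the control, ironomycin, ibrutinib and combination libraries of JVM2, and 0, 0, 1 and 1 in those of MAVER1. At this depth no difference in ferroportin transcript could be measured. The gene identifier that the name table pairs with NCOA4 had 0 reads in all 12 libraries. That identifier is the one of GENCODE 29, which is of another genome build than the counts, so the reads of NCOA4 may stand under another identifier and the 0 is no measure of its level. NCOA4 is therefore not analysed here.

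Treatments were then compared with the line as a term of the model, in 1 edgeR fit over all 12 libraries. A gene is called here when its p, adjusted by Benjamini-Hochberg over the 18674 genes tested, was under 0.05. Levels are in log2 CPM after TMM scaling.

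Ironomycin alone raised FTH1. In log2 CPM, its level was 7.81 in the control and 8.31 in the ironomycin library of JEKO1, 9.19 and 9.73 in JVM2, and 6.83 and 7.58 in MAVER1. Each line was higher with the drug, by 0.49, 0.54 and 0.75, while the ranges of the control and ironomycin libraries overlapped because the lines lay further apart than that. The mean change was 0.59 ± 0.10 on the log2 scale (SE, n = 3), which is 1.51-fold (edgeR adjusted p = 0.0394). FTH1 was the 1 member called of 8, beside 0.584% of all tested genes. The call was lost without JEKO1 (change 0.65, edgeR adjusted p = 0.188) and without MAVER1 (0.51, 0.555), and stood without JVM2 (0.59, 0.0337). Each of these fits has fewer libraries. In all, 3 genes were called without JEKO1 and 1 without MAVER1, against 1636 without JVM2. The FTH1 call was also lost when only the 6 libraries of both groups were fitted (0.59, adjusted p = 0.0837).

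TFRC had the largest mean change among the members, at 0.69 ± 0.19, but was not called (edgeR adjusted p = 0.0904). Its level was 7.90 in the control and 8.04 in the ironomycin library of JEKO1, 8.78 and 9.80 in JVM2, and 8.16 and 9.08 in MAVER1. Both lines given 250 nM moved by 1.02 and 0.91, and JEKO1, given 50 nM, by 0.14. DESeq2 called this change (0.68, adjusted p = 0.00917) and called 12.6% of all genes in the same comparison, among them also SLC11A2 (0.23, 0.00767) and IREB2 (-0.13, 0.0454). FTL, the light chain, was 0.26 ± 0.11 higher (adjusted p = 0.187), 0.48 in JEKO1 and less in JVM2 (0.20) and MAVER1 (0.10). SLC11A2 was 0.24 ± 0.08 higher (adjusted p = 0.115), with line values of 0.18, 0.21 and 0.34.

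The sensors moved less under ironomycin alone. IREB2 changed by -0.12 ± 0.07 (edgeR adjusted p = 0.316) and was lower in all 3 lines, by 0.09 to 0.15. FBXL5 changed by -0.05 ± 0.08 and by 0.016 when library totals replaced TMM. ACO1 changed by 0.02 ± 0.16, a mean over a lower level in JEKO1 and a higher one in JVM2, as described further on. SLC39A14 changed by 0.06 ± 0.11. At an unadjusted p under 0.05, 4 of the 8 members differed from control, beside 4198 of the 18674 genes tested (edgeR). The 4 were TFRC, FTH1, FTL and SLC11A2, and all were higher.

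**Figure D2:**
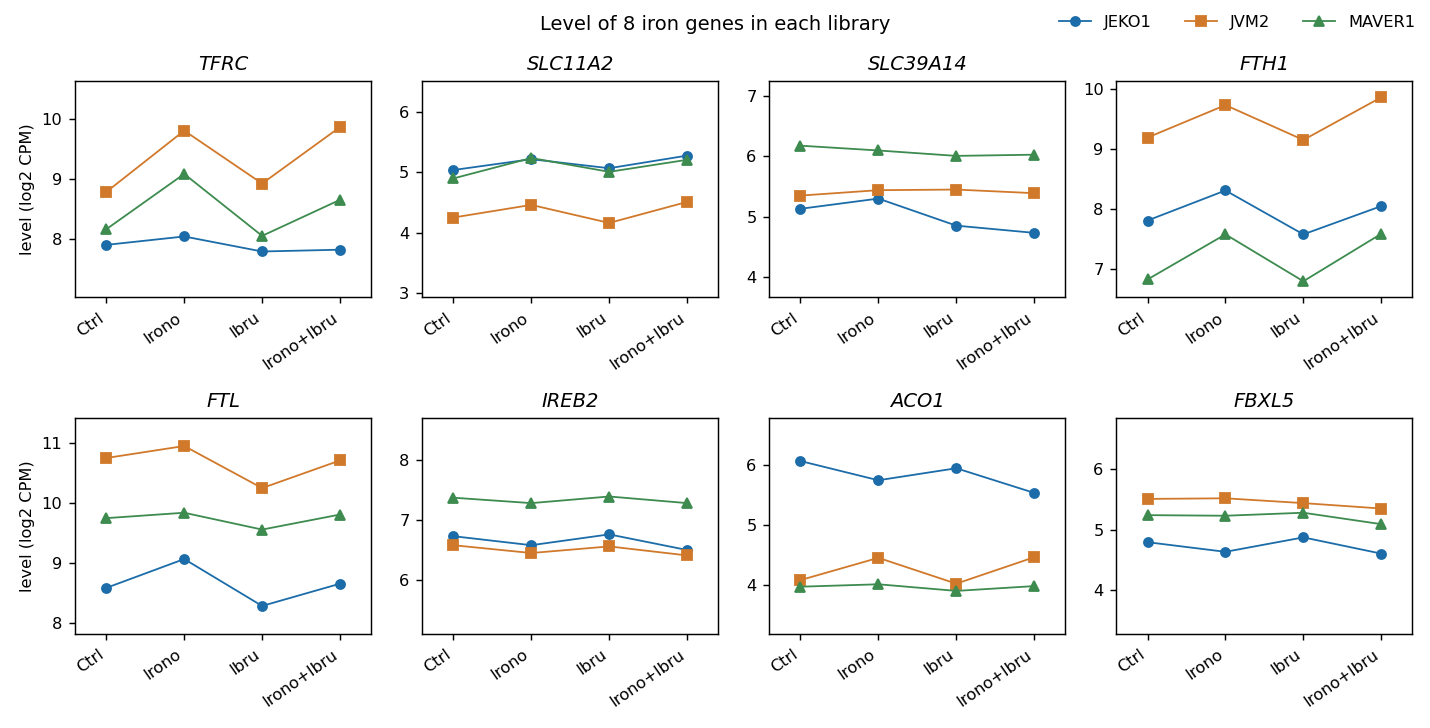
Level of the 8 tested genes (log2 CPM, each panel with its own range) in the control, ironomycin, ibrutinib and combination libraries of the 3 lines, 1 point per library. FTH1 was higher in both ironomycin libraries of a line than in its 2 other libraries, and TFRC was so in JVM2 and MAVER1, while its 4 levels in JEKO1 stayed between 7.79 and 8.04.

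Ibrutinib alone called no member and no gene (0 of 18674, 0.0%, edgeR), with 680 genes and 1 member, FTL, at an unadjusted p under 0.05. DESeq2 called 26 genes and no member. FTL was 0.33 ± 0.11 lower (edgeR adjusted p = 1.0). Its level in the control and ibrutinib libraries was 9.75 and 9.56 log2 CPM in MAVER1, 10.75 and 10.25 in JVM2, and 8.59 and 8.29 in JEKO1, lower with ibrutinib each time. For FTH1 the change was -0.10 ± 0.10, and for TFRC it was -0.04 ± 0.19. The remaining 5 members lay between -0.12 and 0.02.

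With both drugs, FTH1 and SLC11A2 were higher than in control. FTH1 reached 8.05, 9.86 and 7.59 log2 CPM in JEKO1, JVM2 and MAVER1, which was 0.56 ± 0.10 above control (1.48-fold, edgeR adjusted p = 0.00499). SLC11A2, the endosomal iron transporter, had 5.04 log2 CPM in the control and 5.28 in the combination library of JEKO1, 4.25 and 4.51 in JVM2, and 4.90 and 5.21 in MAVER1. The differences of 0.24, 0.25 and 0.31 lay close together, and their mean of 0.27 ± 0.08 (1.21-fold) was called (edgeR adjusted p = 0.0276). The 2 of 8 members called stood beside 28.2% of all tested genes. SLC11A2 was called in no fit that left out a line (adjusted p = 0.159 without JEKO1, 0.0751 without JVM2 and 0.190 without MAVER1), and FTH1 was called without JVM2 (0.0256) but not without JEKO1 (0.0562) or MAVER1 (0.126). Without JEKO1 or without MAVER1, 37 and 22 genes in all were called in this comparison. With only the libraries of both groups fitted, the adjusted p was 0.0889 for FTH1 and 0.237 for SLC11A2.

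TFRC was 0.50 ± 0.19 above control with both drugs and was not called (edgeR adjusted p = 0.0787). Its level of 7.82 in JEKO1 was below the control of that line, while it was 9.86 in JVM2 and 8.65 in MAVER1. Without JVM2 the mean was 0.16. FTL was at control level, with a change of 0.03 ± 0.11. IREB2 (-0.16 ± 0.07, adjusted p = 0.103) and FBXL5 (-0.17 ± 0.08, adjusted p = 0.139) were lower in each of the 3 lines without passing the edgeR test. DESeq2 called both (adjusted p = 0.00165 and 0.0315), and TFRC as well (0.0494).

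**Figure D3:**
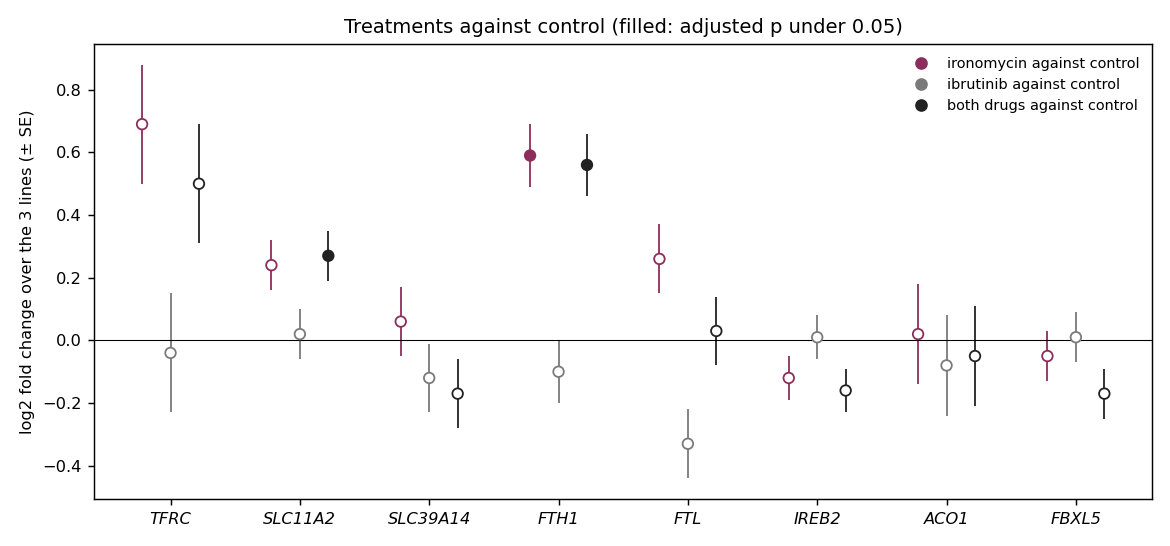
Change of the 8 tested genes against control (log2 fold change over the 3 lines, bars ± SE) with ironomycin, ibrutinib or both; filled symbols passed an adjusted p of 0.05 and open ones did not. FTH1 was called with ironomycin (0.59) and with both drugs (0.56), SLC11A2 with both drugs (0.27), and nothing with ibrutinib alone.

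The effect of ironomycin in the presence of ibrutinib was read from the combination against ibrutinib alone, 2 groups that are not those of the ironomycin comparison above, although the spread came from the same fit over all libraries. FTH1 was 0.66 ± 0.10 higher (1.58-fold, edgeR adjusted p = 0.00499), FTL 0.35 ± 0.11 (1.28-fold, 0.0388) and SLC11A2 0.25 ± 0.08 (1.19-fold, 0.0412). These were 3 of 8 members, beside 23.3% of all tested genes. TFRC was 0.53 ± 0.19 higher and not called (adjusted p = 0.0691). Without JVM2 only FTH1 was called among the members, and without JEKO1 or MAVER1 none was (edgeR), with 1 and 6 genes called in all. With only the libraries of both groups fitted, none of the 3 was called (edgeR adjusted p = 0.0509 for FTH1, 0.138 for FTL and 0.169 for SLC11A2), while DESeq2 called these 3 and also TFRC (0.0348), IREB2 (-0.19, 0.000832) and FBXL5 (-0.20, 0.0214).

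Each line gave a pair of libraries with and without ironomycin, once without and once with ibrutinib, and so 6 pairs in all. TFRC, FTH1, FTL and SLC11A2 were higher with ironomycin in 6 of 6 pairs, by 0.03 to 1.02, 0.47 to 0.79, 0.10 to 0.48 and 0.18 to 0.34 on the log2 scale. IREB2 was lower in 6 of 6, by 0.09 to 0.26. With library totals in place of TMM, the mean change of IREB2 was -0.055 with ironomycin and -0.037 with both drugs against control. Against ibrutinib it was -0.068 with both drugs. FBXL5 was lower in 5 of 6, ACO1 higher in 4, and SLC39A14 higher in 3. The 6 pairs share 3 lines, and the share of all tested genes with the same direction in 6 of 6 was not counted. These counts are therefore a description.

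Adding ibrutinib to ironomycin called no member and no gene (0.0%, edgeR), with 1970 genes and 0 members at an unadjusted p under 0.05, and DESeq2 called 163 genes. The largest differences were -0.24 ± 0.11 for FTL and -0.23 ± 0.11 for SLC39A14. How far the combination lay from the 2 single changes added together, on the log2 scale, was tested as well and called none (0.0%, edgeR and DESeq2), with 367 genes and 0 members at an unadjusted p under 0.05. These distances ran from -0.15 ± 0.27 for TFRC to 0.09 ± 0.15 for FTL. A departure within these standard errors could not be detected, and one well beyond them could be missed too. In the same fit, the change of TFRC with ironomycin alone was not called at 0.69 ± 0.19.

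The response of TFRC and of ACO1 to ironomycin differed between the lines. This was tested with a term for ironomycin in each line, so that the 2 libraries with ironomycin of a line stood against the 2 without. TFRC rose by 0.98 ± 0.11 in JVM2 (1.98-fold, edgeR adjusted p = 0.00257) and by 0.76 ± 0.11 in MAVER1 (1.69-fold, 0.000612), against 0.08 ± 0.11 in JEKO1 (0.625). The test of the difference over the 3 lines was passed (adjusted p = 0.0144). JVM2 exceeded JEKO1 by 0.90 ± 0.16 (adjusted p = 0.0120, where 4.69% of all genes were called), and MAVER1 exceeded it by 0.68 ± 0.16 (0.0512, with 2.78% of genes called). JEKO1 received the lower dose, so that its smaller change goes with the line and the dose alike. Between JVM2 and MAVER1, which shared the ironomycin dose, the change differed by 0.22 ± 0.16 and the test was not passed (adjusted p = 0.474, with 7.31% of genes called). The difference was lost without JEKO1 (adjusted p = 0.395) and without MAVER1 (0.0532), and stood without JVM2 (0.0258).

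ACO1 moved in opposite directions. In JEKO1 its level was 6.06 and 5.94 log2 CPM without ironomycin and 5.74 and 5.53 with it, a fall by 0.37 (SE 0.09, edgeR adjusted p = 0.00768). In JVM2 it was 4.08 and 4.02 without and 4.45 and 4.46 with ironomycin, a rise by 0.40 ± 0.09 (0.0423). In MAVER1 all 4 levels lay between 3.90 and 4.01 (0.06 ± 0.09, adjusted p = 0.667). The difference over the lines was called (adjusted p = 0.0111), and that between JVM2 and JEKO1 was 0.77 ± 0.13 (0.00776). Between JVM2 and MAVER1 it was 0.34 ± 0.13 and was not called (0.143). The difference over the lines was not called without JEKO1 (0.131) or without JVM2 (0.0963). With library totals in place of TMM the fall in JEKO1 was 0.22 (adjusted p = 0.0580), and without MAVER1 the rise in JVM2 had an adjusted p of 0.143.

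TFRC and ACO1 were 2 of 8 members called in the test of the difference, beside 9.38% of all tested genes. FTH1 rose in each line on its own, by 0.49 ± 0.10 in JEKO1, 0.63 ± 0.10 in JVM2 and 0.77 ± 0.10 in MAVER1 (edgeR adjusted p = 0.00414, 0.0116 and 0.000296), and no difference between the lines was called (0.381). In JVM2 the call for FTH1 was lost without MAVER1 (0.0916). FTL rose in JEKO1 by 0.43 ± 0.11 (adjusted p = 0.0121) and was 0.32 ± 0.11 and 0.17 ± 0.11 higher in JVM2 and MAVER1 without passing the test (difference between lines, 0.506). SLC11A2 rose in MAVER1 by 0.27 ± 0.09 (adjusted p = 0.0298, and 0.0616 by DESeq2). IREB2 fell in JEKO1 by 0.20 (SE 0.07, adjusted p = 0.0499), a call that library totals ended (-0.061, 0.537). In all, 4 members were called in JEKO1 beside 33.3% of tested genes, 3 in JVM2 beside 3.27% and 3 in MAVER1 beside 32.7%.

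**Figure D4:**
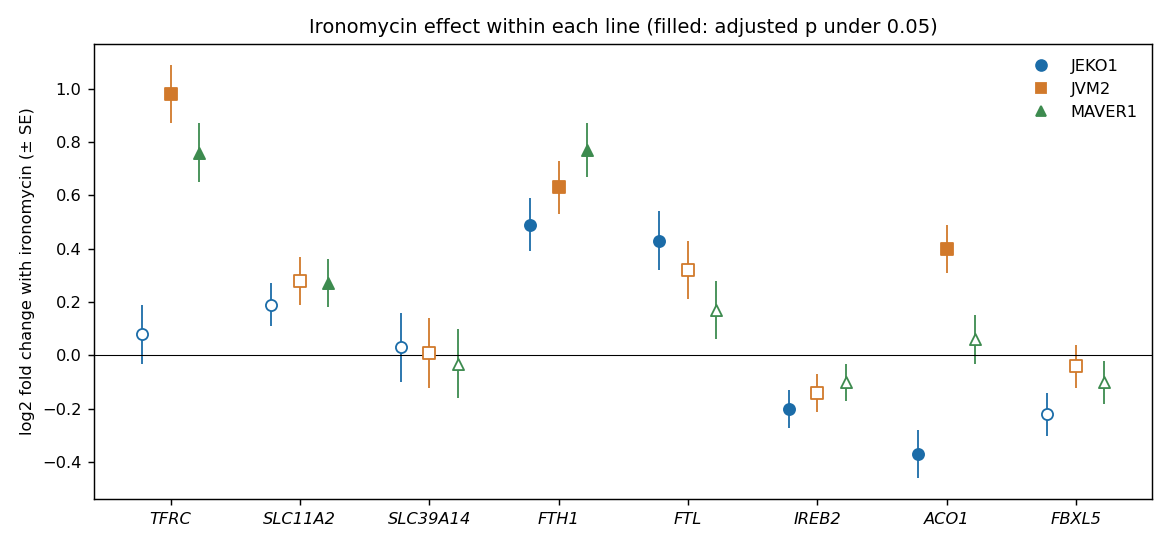
Change with ironomycin within each line (log2 fold change, bars ± SE), from the 2 libraries with against the 2 without ironomycin; filled symbols passed an adjusted p of 0.05 and open ones did not. TFRC changed by 0.98 in JVM2 and 0.76 in MAVER1 against 0.08 in JEKO1, ACO1 fell in JEKO1 and rose in JVM2, and FTH1 rose in all 3 lines.

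For ibrutinib, no member and no gene was called in the test of a difference between lines (0.0%, edgeR), with 466 genes and 1 member, SLC39A14, at an unadjusted p under 0.05, and DESeq2 called 45 genes and no member. SLC39A14 changed with ibrutinib by -0.43 ± 0.11 in JEKO1, 0.03 ± 0.11 in JVM2 and -0.12 ± 0.11 in MAVER1.

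The ratio of receptor to ferritin heavy chain followed from these changes. Per exon length, TFRC to FTH1 was 0.274 in the control and 0.214 in the ironomycin library of JEKO1, 0.194 and 0.271 in JVM2, and 0.647 and 0.724 in MAVER1. In the ibrutinib and combination libraries it was 0.297 and 0.219 in JEKO1, 0.219 and 0.257 in JVM2, and 0.614 and 0.535 in MAVER1. In both pairs it was lower with ironomycin in JEKO1 and higher in JVM2, while in MAVER1 it was higher without ibrutinib and lower with it.

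Genes with the most similar course over the 12 libraries were sought among 9117 named genes whose mean was 3 log2 CPM or higher, on levels from which each line's mean had been subtracted. Pearson's r was 0.943 for COG6, 0.942 for WRN and 0.935 for HLA-DOA with TFRC, and 0.982 for LSS, 0.977 for SNHG14 and 0.973 for MVD with FTH1. The nearest genes to FTL were HLA-DQB1, FDPS and LGMN (0.928, 0.918 and 0.914), to SLC11A2 KDSR, TTC3 and RBL2 (0.979, 0.976 and 0.970) and to SLC39A14 ABRACL, NEDD4L and CD63 (0.938, 0.896 and 0.892). For the sensors they were PAF1, HNRNPA0 and TOP1 for IREB2 (0.985, 0.983 and 0.982), PPIL4, ADI1 and HTT for ACO1 (0.939, 0.939 and 0.933) and THYN1, MPC2 and CETN3 for FBXL5 (0.978, 0.963 and 0.961). Among the members themselves, FTH1 went with SLC11A2 (0.92) and TFRC (0.87) and against IREB2 (-0.82). These are descriptions over libraries that share lines, treatments and scaling.

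Other genes of iron handling were taken from role lists and from the study's own table of iron genes, 93 in all, of which 74 were tested. With ironomycin alone none was called (edgeR), and 20 had an unadjusted p under 0.05, beside 4198 of the 18674 genes tested. DESeq2 called 13, beside 12.6% of all genes. With both drugs 30 were called, 9 higher (all tested genes, 14.2%) and 21 lower (14.0%), and against ibrutinib alone 23 were, 8 higher (11.8%) and 15 lower (11.5%). The median change with both drugs was -0.03 over the 74 genes and 0.05 over all genes. Both counts were 0 without JEKO1 and 0 without MAVER1.

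Of 11 tested genes of the transferrin cycle and uptake, 5 were called lower with both drugs and none was called higher, beside the 14.0% and 14.2% of all tested genes. HFE, the membrane protein that binds the transferrin receptor, fell by 0.90 (SE 0.24, edgeR adjusted p = 0.0179) and was lower in each line, by 0.64 to 1.30. It had only 19 to 51 reads in JEKO1 and 35 to 103 in MAVER1, against 320 to 471 in JVM2, where the fall was 0.64. The ferritin receptor SCARA5 fell by 2.35 but had 0 reads in JVM2, and STEAP1 fell by 1.39 but had 0 reads in JEKO1 and at most 2 in MAVER1. MON1A and SNX3, which act in endosome traffic, fell by 0.50 and 0.26. In iron and heme export, the heme exporter FLVCR1 rose by 0.36 and the heme oxygenase HMOX2 fell by 0.47 among 5 tested genes.

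Around ferritin, the iron chaperone PCBP1 fell by 0.39, the glutaredoxin GLRX3 fell by 0.63 and HERC2, the ligase that degrades NCOA4, rose by 0.43, of 8 tested genes. The FBXL5 partner CUL1 fell by 0.26, of 3 tested. Of 6 factors that bind and destabilize transcripts, RC3H1 rose by 0.37. BACH1, a repressor that senses heme, rose by 0.71, of 10 tested transcription factors and regulators of such factors. Among other transcripts known for IREs, PFN2 rose by 0.61. Among genes of mitochondrial iron handling, the transporter ABCB8 fell by 0.32.

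The study's table held 21 further tested genes, and 13 were called with both drugs, beside 28.2% of all tested genes. Among them the heme synthesis genes ALAS1, UROD and UROS fell by 0.38, 0.29 and 0.49. Of the iron-sulfur genes, NFS1 and NFU1 fell by 0.42 and 0.49 and ISCU rose by 0.32. APEX2 fell by 0.52. SFXN1 and SFXN4 of the sideroflexin family fell by 0.57 and 0.56, and SFXN3 and SFXN5 rose by 0.48 and 0.34. The transporter ABCB6 rose by 0.81. ISCA2 was called against ibrutinib alone, where it fell by 0.40. The list of the study was drawn up for iron biology, and its counts are a description and no test of the list.

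**Figure D5:**
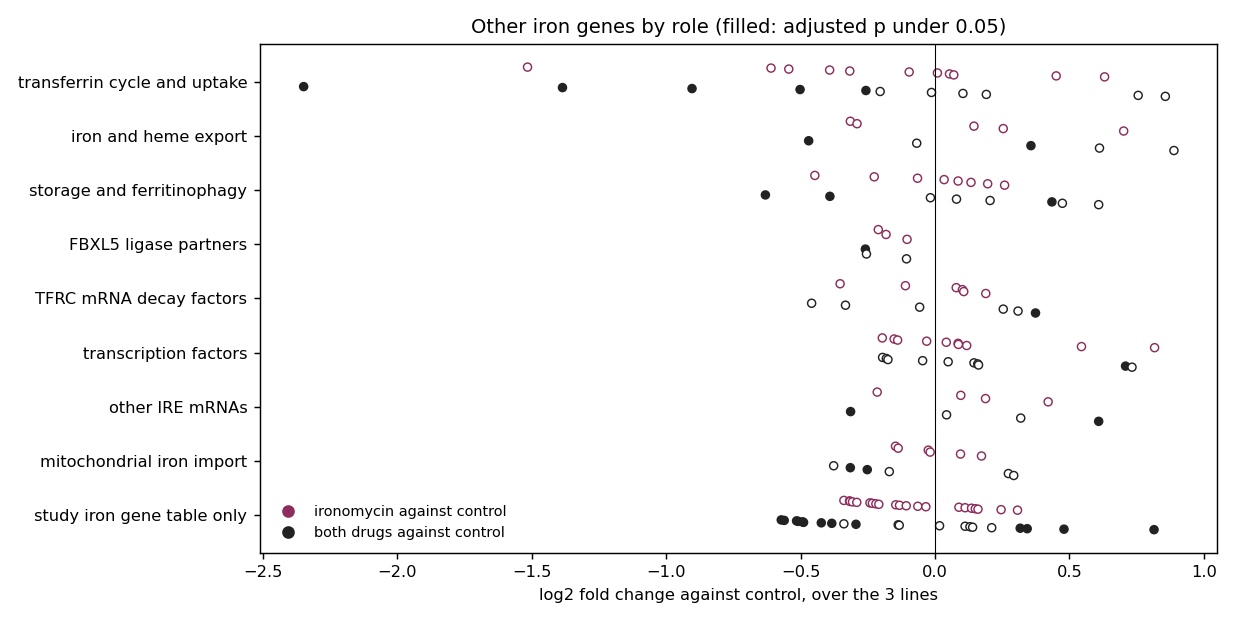
Change of 74 other iron genes against control (log2 fold change over the 3 lines), by role, with ironomycin (upper points) or both drugs (lower points); filled points passed an adjusted p of 0.05. None of these genes was called with ironomycin alone, and 30 were with both drugs, beside 28.2% of all tested genes. Of the 30, 5 were lower in the transferrin cycle and uptake list.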

How the data were processed

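RNA-seq counts of 12 libraries were analysed: 3 MCL cell lines under 4 treatments, 1 library each. The values deposited by the authors are whole read counts for each Ensembl gene, not normalized. The submitters' processing notes name STAR, DESeq2 and GRCh37 and give no further steps, and the counting tool is not given in the sources used here. No column was left unused (0). Names came from a table of gene identifiers. Exon lengths and untranslated regions came from GENCODE 29, which is of another genome build, so that no genome coordinates are given and positions are those in transcripts. Lengths are of the union of exons and may not match the transcripts used by a line. Totals of 35448523 to 38630809 reads make counting error small for the tested genes, and too large for a comparison at 0 to 3 reads. Reads on 25 FTH1 pseudogenes summed to 0.425 to 0.752% of FTH1 reads and those on 16 FTL pseudogenes to 0.05 to 0.137% of FTL reads; reads of near-identical copies may have been divided among them.

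Tests used edgeR 4.0.16 under R 4.3.3 (filterByExpr, TMM, quasi-likelihood F-test, line and treatment as terms), with Benjamini-Hochberg adjustment over 18674 genes and calls at an adjusted p under 0.05. Log2 CPM used a prior count of 2. The line is a block because libraries of a line come from the same cell line: deviations from treatment means correlated at 0.926 to 0.976 within lines (18 pairs) and at -0.705 to -0.127 between lines (48 pairs). Effects within a line and their differences came from a model with a term for ironomycin, or ibrutinib, in each line. No 2 libraries had equal counts. With the line as a term, P-values of the treatment comparisons measure how unevenly the lines responded, not the spread of levels between lines. Those of effects within a line and of their differences use the spread left between libraries of the same line, pooled over the lines. No library is a repeated culture. The tests were checked on simulated counts with 200 changed genes: for both drugs against control edgeR found 87 of 100 genes with a log2 change of 2, found 64 of 100 with a change of 1, and called 8 unchanged genes, where DESeq2 called 29. For the difference between lines it found 51 and 20 and called 7 unchanged genes, where DESeq2 found 63 and 51 and called 62. Apart from the set change, a simulated gene had the same expected share of reads in every library. The rates may therefore not carry over to lines that differ in level and response.

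Alternatives were RLE size factors, library totals, no filter, DESeq2 1.42.0, a fold change minimum, a prior count of 0.5, other libraries in the fit, no line term and leaving out each line. The members and lists were chosen with earlier results of these data known. Named are all members, other iron genes called in a treatment comparison or in the difference between lines, and the 3 genes most like each member, except that a few of the other iron genes called are counted but not reported here by name. Python 3.11.15 with pandas 2.3.3 and matplotlib 3.10.9 handled tables and plots. The other assays of the study were not analysed here.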

Additional observations from a re-analysis of the deposited data

Results flagged for a closer look

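The change with ironomycin differed between the 3 lines in the test of that difference for 2 members and 6 other iron genes. JEKO1 had the lower ironomycin dose, so that in its difference from the other lines line and dose cannot be told apart, while JVM2 and MAVER1 shared the ironomycin dose and differed in that of ibrutinib. TFRC (edgeR adjusted p = 0.0144) rose in JVM2 and MAVER1 and changed by 0.08 in JEKO1, and without JEKO1 its adjusted p was 0.395. ACO1 (0.0111) fell by 0.37 in JEKO1 and rose by 0.40 in JVM2. Between JVM2 and MAVER1 neither was called (adjusted p = 0.474 for TFRC and 0.143 for ACO1).

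BACH1 (adjusted p = 0.00718) rose by 1.10 in MAVER1 and 0.67 in JEKO1 and changed by 0.29 in JVM2. ZFP36 (0.00558), a factor that binds AU-rich transcripts, rose by 0.54 in MAVER1, fell by 0.42 in JEKO1 and changed by -0.36 in JVM2. GLRX3 (0.0328) fell by 0.82 in MAVER1 and by 0.42 in JEKO1 and changed by -0.18 in JVM2. UROS (0.0184) fell by 0.65 in MAVER1 and 0.53 in JEKO1 and changed by -0.05 in JVM2. PCBP4 (0.0302) rose by 0.88 in MAVER1 and 0.66 in JEKO1 and changed by -0.20 in JVM2. ABCB6 (0.0311) rose by 1.25 in JEKO1 and changed by 0.77 in JVM2 and -0.01 in MAVER1, on 33 to 297 reads per library. The difference between JVM2 and MAVER1, at the same ironomycin dose, was itself called by edgeR for BACH1 (adjusted p = 0.00392), ZFP36 (0.00667), GLRX3 (0.0205), UROS (0.0138) and PCBP4 (0.0233) but not for ABCB6 (0.134), beside 7.31% of all tested genes. These 6 were 8.11% of the 74 other iron genes tested, beside 9.38% of all tested genes.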

How the results depend on the processing

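Of 632 recomputed gene values, 547 kept direction and side of the threshold, 42 lost a call, 13 gained one and 30 changed sign. The cause was not tested, but each fit without a line has fewer libraries. With library totals the median of all genes for both drugs against control moved from 0.05 to 0.18, and TFRC was called with both drugs against control and against ibrutinib (0.62 and 0.63). A prior count of 0.5 moved none of 120 ratios.

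Members called, 1 with ironomycin, 2 with both drugs and 3 with both against ibrutinib alone, were 0 each without the replicate block, with only the groups compared in the fit, and with a log2 fold minimum of 1. DESeq2 called 4, 5 and 6. Without a filter 1 was called with both drugs. Leaving out a line gave 0 to 1 in each of the 3 comparisons, and 0 to 1 in place of 2 for the difference of the ironomycin effect between lines. Other iron genes called, 0, 30, 23 and 6, were 0, 0 and 0 without the block or with only the groups compared, 0, 2 and 2 with the fold minimum, and 13 with ironomycin and 10 for the difference between lines by DESeq2. Adding a line by ibrutinib term gave 19 in place of 6. Leaving out a line gave 0 to 3, 0 to 28, 0 to 23 and 0 to 9. The block changed the sign of no called value. The levels differed between lines for 8 members under the alternatives that kept all lines, and for 7 or 8 when a line was left out.

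The sign changed only for changes that were not called. Against control with ironomycin these were ACO1 (-0.0024 without a filter, -0.12 without the block, -0.18 to 0.20 leaving out a line), FBXL5 (0.016 with library totals) and SLC39A14 (-0.0036 to 0.13 leaving out a line). With ibrutinib they were TFRC (0.0091 without the block, -0.11 to 0.011 leaving out a line), FBXL5 (-0.019 to 0.054) and SLC11A2 (-0.024 to 0.068). With both drugs they were FTL (-0.00017 without the block) and ACO1 (0.071 with library totals, -0.30 to 0.20 leaving out a line). Against ironomycin they were FTH1 (0.022 with library totals, 0.036 without the block, -0.12 to 0.070) and IREB2 (0.018 with library totals). Against ibrutinib they were ACO1 (-0.14 without the block, -0.21 to 0.26) and SLC39A14 (0.044 with library totals). For the departure from the sum they were FTL (-0.0002 to 0.19), ACO1 (-0.025 without the block, -0.031 to 0.056) and SLC11A2 (-0.0027 with RLE factors, -0.0079 with DESeq2, -0.0078 without the block, -0.058 to 0.079 leaving out a line). Within lines they were SLC39A14 (-0.0015 without a filter in JEKO1, 0.018 with library totals in MAVER1) and FBXL5 (0.023 with library totals in JVM2).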
